A study of Mus musculus with 6 samples.

Results

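The cytosolic heat shock genes described here are 9 genes taken by name from the 53715 genes of a cerebellar RNA-Seq table: *Hsf1*, *Hspa1a*, *Hspa1b*, *Hspa8*, *Hsph1*, *Dnajb1*, *Hsp90aa1*, *Hsp90ab1*, and *Hspb1*. They were taken by symbol, with no threshold on a measured value. All 9 were found under their symbols, and all 9 were among the 16330 genes that passed the filter on low counts. The cerebellum of 3 control mice and of 3 *Slc39a8*-NSKO mice was sequenced, all of them males labelled C57BL/6 (the methods give the parental lines as C57BL/6J) and, per the study, 4 weeks old. *Slc39a8* encodes a transmembrane carrier for manganese, zinc, and iron, and the comparison asked what its loss from neurons did to the cerebellar transcriptome. In *Slc39a8*-NSKO mice, labelled slc39a8-KO, a *Syn-Cre* transgene under the neuronal synapsin I promoter deletes the floxed *Slc39a8* alleles, so that glia and other cells keep the gene. The sample labels give the control genotype as WT, while the study's methods name *Slc39a8* fl/fl or wild-type mice in different places, and the counts do not tell these apart.

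The heat shock response is the program by which cells raise molecular chaperones when proteins misfold. Its transcription factor, HSF1, is held inactive by chaperones, and on heat or other protein damage it forms trimers that bind heat shock elements, inverted repeats of the unit nGAAn, in front of chaperone genes. HSP70 proteins fold clients together with J-domain proteins that deliver them and HSP110 proteins that release nucleotide, HSP90 proteins mature kinases and receptors, and small heat shock proteins hold unfolded clients without ATP. In brain the constitutive members are made at high levels by neurons, whereas the stress-induced members are usually low.

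The inducible HSP70 genes *Hspa1a* and *Hspa1b* lie next to each other on the minus strand of chromosome 17 in GRCm38, at chr17:34969190-34972156 and chr17:34956436-34959238, and each has 1 annotated transcript. To show how alike the pair is, the 250 bases before each start site in RefSeq are printed (GRCm38.p6, minus strand, chr17:34972157-34972406 and chr17:34959239-34959488). Capitals mark letters that match 2 units of a heat shock element, and binding there was not tested.

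Hspa1a: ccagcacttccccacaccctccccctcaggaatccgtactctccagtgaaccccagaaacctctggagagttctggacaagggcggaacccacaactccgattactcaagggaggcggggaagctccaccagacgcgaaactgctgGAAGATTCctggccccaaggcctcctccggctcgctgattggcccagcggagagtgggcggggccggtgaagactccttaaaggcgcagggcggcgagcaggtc
Hspa1b: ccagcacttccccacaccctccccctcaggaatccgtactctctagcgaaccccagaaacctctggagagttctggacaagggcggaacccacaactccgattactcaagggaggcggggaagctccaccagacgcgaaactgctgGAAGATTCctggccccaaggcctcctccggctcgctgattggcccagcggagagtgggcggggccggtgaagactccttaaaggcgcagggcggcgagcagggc

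These upstream sequences had 247 of 250 bases in common, with a longest shared run of 201 bases. Counted from 1 at the 5' end, and with the *Hspa1a* base first, the differences were C44T, T47C, and T249G. The transcripts, from which the reads come, were alike in part. Of the 150-base words of the *Hspa1a* transcript, 38.1% also occurred in *Hspa1b*, and 40.5% of the *Hspa1b* words occurred in *Hspa1a*. Both genes had estimated counts that were not whole in all 6 mice, as happens when a program divides reads between genes. The split between them is therefore uncertain, and their sum is given beside each.

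RefSeq windows of 250 bases before to 50 bases after a start site were found for 5 of the 9 genes (*Hspa1a*, *Hspa1b*, *Hsph1*, *Dnajb1*, and *Hspb1*), with more than 1 start site for *Hsph1* and *Dnajb1*, and were not found for *Hspa8*, *Hsp90aa1*, *Hsp90ab1*, and *Hsf1*. A heat shock element of 2 units was searched as GAANNTTC or TTCNNGAA, each of which is its own reverse complement. It occurred in windows of 4 of the 5 genes, compared with 17.0% of all 27025 genes with a window and 15.1% of all 32851 windows of this length. The *Hspa1a* and *Hspa1b* matches lie in nearly the same sequence and are not independent, and the genes were chosen as heat shock genes. An element of 3 units, searched as GAANNTTCNNGAA or TTCNNGAANNTTC to cover both strands and overlapping the shorter motif, occurred in 1 of the 5, *Hsph1*, and in 0.662% of all genes with a window (0.603% of windows). The *Hsph1* match, TTCTGGAAAGTTC, began 36 bases after the more upstream RefSeq start site. *Hspb1*, which encodes a small heat shock protein, had 2 matches in front of its start site, and the plus-strand stretch that holds both, chr5:135887786-135887845, is shown with the matches in capitals.

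Hspb1: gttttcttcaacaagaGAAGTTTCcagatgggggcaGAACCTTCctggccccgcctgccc

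No match was found in the *Dnajb1* windows, which says only that these letters do not occur there.

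Total counts on genes ranged from 14431260 to 20844267 per mouse. The control libraries had 20844267, 14431260, and 15555933 counts and the *Slc39a8*-NSKO libraries 20030339, 19441352, and 18779182, so the shallowest libraries and the deepest were all control. The deleted gene was counted 99, 46, and 44 times in the control group and 38, 40, and 41 times in the *Slc39a8*-NSKO group, which came to 3.60 ± 1.04 and 2.04 ± 0.138 CPM (SD, n = 3). CPM are counts scaled to 1000000 counts on tested genes after TMM adjustment. The groups did not overlap, with a log2 fold change of -0.83 ± 0.237 (SE), but *Slc39a8* did not pass the threshold over all genes (edgeR adjusted p = 0.534). Without control mouse 1, which had the highest count, the value was -0.56. Marker lists of granule cells and Purkinje cells had no gene with 0 counts over all 6 mice, and their summed levels overlapped. The 6 markers of Bergmann glia and astrocytes summed to 1973 to 2283 CPM in control and 2339 to 2394 CPM in *Slc39a8*-NSKO. The 6 microglial markers summed to 68.0 to 75.5 and 78.7 to 82.5 CPM. None of the markers passed the threshold, and the part of these differences in the results below was not tested. In whole cerebellum, fewer cells of a type and less RNA per cell cannot be told apart.

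Corrected for length, *Hspa8* and the HSP90 genes were near the top of the transcriptome, *Hsph1*, *Dnajb1*, and *Hspb1* in its upper part, and *Hsf1*, *Hspa1a*, and *Hspa1b* near its middle. *Hspa8*, which encodes the constitutive HSP70 of the cytosol (HSC70), had the highest level, 380.0 CPM per kb of exon over the 6 mice, followed by *Hsp90ab1*, the constitutive HSP90, with 375. These ranges overlapped. *Hsp90aa1*, the HSP90 isoform that stress can raise, followed with 240 and did not overlap its neighbor on either side in the order. These 3 levels were at the 99.7th, 99.7th, and 99.4th percentiles of the tested genes. *Hsph1*, which encodes an HSP110, had 16.4, *Dnajb1*, the J-domain partner of inducible HSP70, had 14.6, and *Hspb1* had 12.3, each overlapping the next, at the 81.2nd, 78.9th, and 75.1st percentiles. *Hsf1* had 5.58 (55.2nd percentile), below the range of *Hspb1*, and *Hspa1a* and *Hspa1b* were last with 4.13 and 2.81, at the 48.1st and 39.8th percentiles. The ranges of *Hsf1* and *Hspa1a* overlapped, as did those of *Hspa1a* and *Hspa1b*. Several of these relations depended on the length used. Divided by the longest transcript, *Hsf1* had 10.9 to 14.4 CPM per kb, which overlapped *Hspb1* (11.3 to 16.1) and no longer *Hspa1a* (3.01 to 5.34), and the ranges of *Hspa8* and *Hsp90ab1*, and of *Hsph1* and *Dnajb1*, no longer overlapped. Together the 9 genes held 0.379% to 0.405% of the counts of a mouse.

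**Figure D1:**
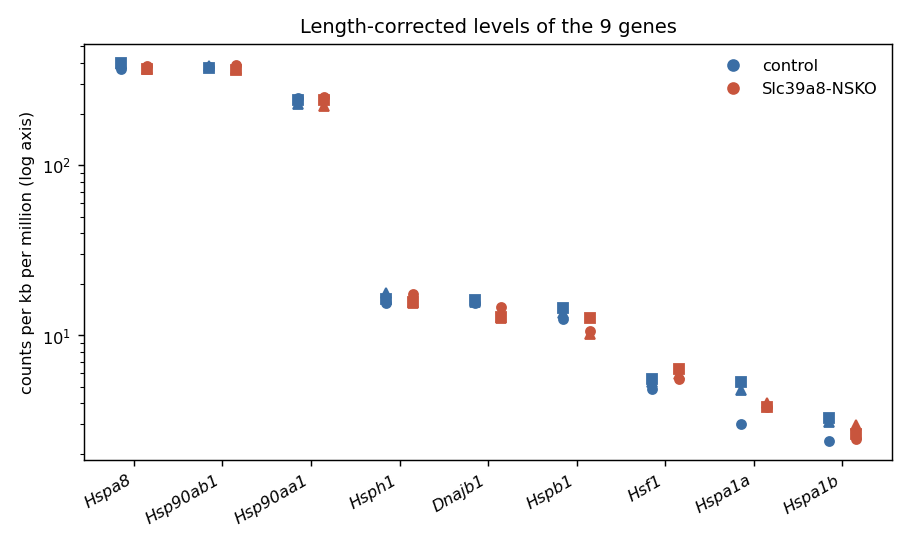
Level of each gene in each mouse in CPM per kb of exon, on a log axis, with control mice in blue, *Slc39a8*-NSKO mice in red, and marker shapes for the mouse number. *Hspa8*, *Hsp90ab1*, and *Hsp90aa1*, with means from 240 to 380.0, stand apart from the other 6 genes, whose means lie between 2.81 and 16.4.

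None of the 9 genes passed an adjusted p of 0.05 in the quasi-likelihood test of edgeR, where 0.098% of all tested genes passed (16 of 16330). DESeq2 and limma-voom also called none of them, where 37 of 27181 and 12 of 16330 genes passed. At an unadjusted p under 0.05 in edgeR there were 3 of 9, *Dnajb1*, *Hspb1*, and *Hsf1*, against 5.39% of all genes. *Dnajb1* alone was lower in the *Slc39a8*-NSKO group with no overlap, 1 of 9 against 5.26% of all genes, and *Hsf1* alone was higher with no overlap, 1 of 9 against 5.07%. The fitted log2 fold change was below 0 for 8 of the 9, with a median of -0.06, compared with a median of 0.0011 and 49.5% below 0 over all genes. The median was -0.03 without control mouse 2 and -0.09 without control mouse 1, and with total counts as a covariate, an alternative added after seeing the data, it was -0.0093, with 5 of 9 below 0. For 9 genes these counts are small, and the genes share the same 6 mice.

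**Figure D2:**
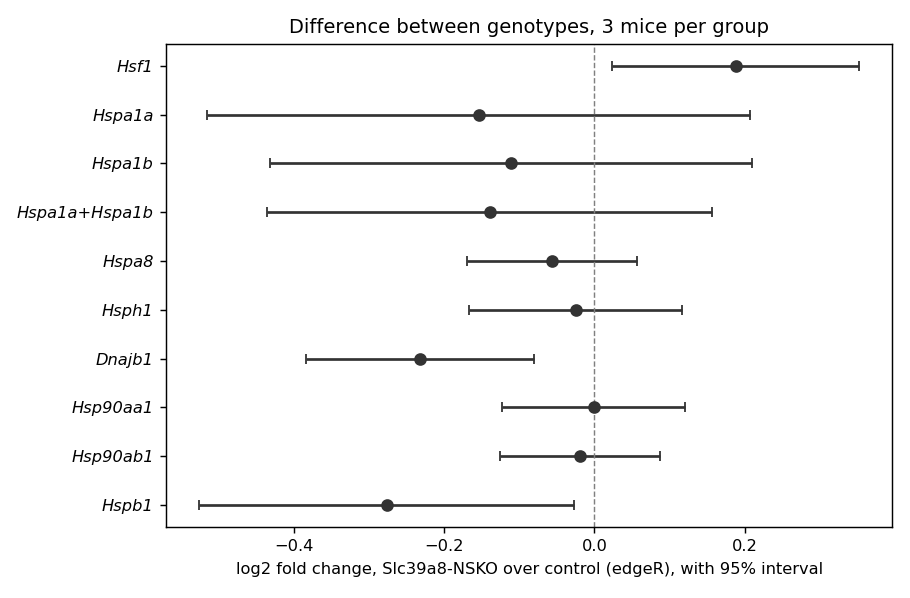
Log2 fold change of *Slc39a8*-NSKO over control for the 9 genes and for *Hspa1a* and *Hspa1b* summed, with points for the edgeR estimate and bars for its 95% interval, unadjusted for the number of genes. The intervals of *Hsf1*, *Dnajb1*, and *Hspb1* do not reach 0, and the intervals of *Hspa8*, *Hsph1*, and the HSP90 genes are the narrow ones that span it.

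*Hsf1*, the transcription factor of the response (chr15:76477422-76501913, plus strand), had 34.2, 39.1, and 37.8 CPM in control mice and 39.2, 45.2, and 41.9 CPM in *Slc39a8*-NSKO mice. The groups did not overlap, but the highest control and the lowest *Slc39a8*-NSKO mouse were nearly level. The means were 37.1 ± 2.56 and 42.1 ± 3.0 CPM (SD, n = 3), a log2 fold change of 0.19 ± 0.0767 (SE) with a 95% interval from 0.02 to 0.35. The unadjusted p was 0.0286 and the adjusted p 0.885 in edgeR, and the exact two-sided permutation test gave p = 0.1, the smallest that 3 mice against 3 allow. Leaving out 1 mouse at a time gave values from 0.13 to 0.24. In this fit, *Hsf1* was the only one of the 9 genes with a difference above 0.

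The inducible HSP70 genes varied more between control mice than between genotypes. *Hspa1a* had 8.93, 15.9, and 14.1 CPM in control mice and 11.3, 11.3, and 11.9 CPM in *Slc39a8*-NSKO mice. Control mouse 1 was the lowest of all 6 and control mouse 2 the highest, with the 3 *Slc39a8*-NSKO mice close together between them. *Hspa1b* had 6.71, 9.18, and 8.74 CPM in control mice and 6.91, 7.39, and 8.34 CPM in *Slc39a8*-NSKO mice, again with control mice 1 and 2 at the ends. Summed, the genes had 15.7, 25.03, and 22.9 CPM in control mice and 18.2, 18.7, and 20.2 CPM in *Slc39a8*-NSKO mice, with means of 21.2 ± 4.90 and 19.1 ± 1.05 (SD, n = 3). The log2 fold change of the sum was -0.14 ± 0.138 (SE), with a 95% interval from -0.44 to 0.16 (edgeR adjusted p = 0.994; exact two-sided permutation p = 0.6). The single genes gave -0.15 for *Hspa1a* and -0.11 for *Hspa1b*, each with an edgeR adjusted p of 0.994. The value depended on which control mouse was in the fit: without control mouse 1 it was -0.33 for the sum and -0.38 for *Hspa1a*, without control mouse 2 it was -0.0024 for the sum and 0.02 for *Hspa1a*, and without control mouse 3 it was -0.07 for the sum. For *Hspa1b* the corresponding values were -0.25, -0.02, and -0.06, and leaving out *Slc39a8*-NSKO mouse 1 or 3 gave -0.05 or -0.19.

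Levels of this pair ran in the exact reverse order of sequencing depth. The sum had 325, 360.0, and 356 estimated counts in control mice and 364, 365, and 381 in *Slc39a8*-NSKO mice, so that the highest count was 1.17 times the lowest while the total counts of the mice differed 1.44-fold. Across the 6 mice, log2 CPM of the sum against total counts gave Pearson's r = -0.964 (exact permutation p = 0.00139, adjusted p = 0.00694) and Spearman's rho = -1 (exact permutation p = 0.00278, the smallest that 6 mice allow, adjusted p = 0.00926), with Benjamini-Hochberg adjustment over 10 relations, the 9 genes and the sum. Without control mice 2 and 3, the 2 farthest from the median depth, r was -0.975 over 4 mice. *Hspa1a* and *Hspa1b* alone each had a rho of -1 as well, although these are not independent of the sum. The relation was computed after the values had been seen. A rho of -1 was found for 0.533% of all tested genes (87 of 16330), and r at or below that of the sum for 0.190% of them. None of the other 7 genes had an adjusted p under 0.05 in these relations. The 7 had rho from -0.6 for *Hspb1* to 0.71 for *Hsp90aa1*, and Pearson's r from -0.827 for *Hspa8* to 0.396 for *Hsp90aa1*. The *Hspa8* value had an exact permutation p of 0.0444 and an adjusted p of 0.111. Without control mice 2 and 3, r for *Hspa8* was 0.213. With total counts as a covariate, the log2 fold change of the sum turned to 0.15 (edgeR adjusted p = 0.998) and that of *Hsf1* was 0.27 (adjusted p = 0.581). Depth was not balanced between the genotypes, and its part in the *Hspa1a* and *Hspa1b* values beyond this fit was not tested.

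**Figure D3:**
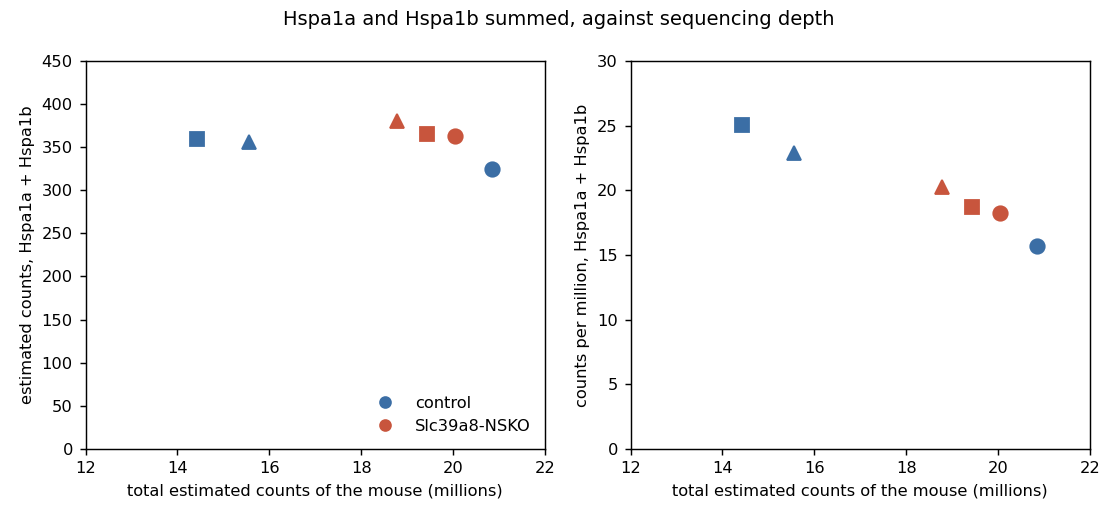
*Hspa1a* and *Hspa1b* summed in each mouse against the mouse's total estimated counts, as estimated counts (left) and as CPM (right), with control mice in blue, *Slc39a8*-NSKO mice in red, and marker shapes for the mouse number. The counts lie between 325 and 381 at every depth, while the CPM descend from 25.03 in the shallowest library to 15.7 in the deepest.

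Reads at *Hspa1a* and *Hspa1b* also had other possible sources. *Hspa1a* made up 57.1% to 63.4% of the pair's counts in each mouse, with a median of 61.2%. *Hspa1l*, an HSP70 gene known mainly from testis, shared 2.98% of the *Hspa1a* words and had 73.3 to 133 counts, with 6.09 ± 1.27 CPM in control and 5.32 ± 1.30 CPM in *Slc39a8*-NSKO mice. *Hspa1a* overlaps the plus-strand gene model *Gm20481*, and the strand setting of the counting is not given in the sources used here.

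The constitutive HSP70 gene *Hspa8* (chr9:40800984-40810087, plus strand) had 1578, 1720, and 1701 CPM in control mice and 1655, 1575, and 1577 CPM in *Slc39a8*-NSKO mice. Control mouse 1 lay with the lower *Slc39a8*-NSKO mice, so the groups overlapped. The log2 fold change was -0.06 ± 0.0524 (SE), and its 95% interval ran from 0.889 to 1.04 times the control level (edgeR adjusted p = 0.994). Of its 150-base transcript words, 20.0% also occur in the pseudogene *Gm15459*. Summed over the 6 mice, the counts given to that pseudogene came to 0.278% of those of *Hspa8*. *Hspa8* contains 3 small nucleolar RNA genes of the *Snord14* family on its own strand, which oligo-dT priming is not designed to capture.

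*Hsph1*, the HSP110 that exchanges nucleotide on HSP70 (chr5:149614287-149636376, minus strand), had 113, 120, and 129 CPM in control mice and 128, 114, and 113 CPM in *Slc39a8*-NSKO mice. The genotypes covered the same range, and its log2 fold change of -0.03 ± 0.0658 (SE) had a 95% interval from 0.891 to 1.08 times control (edgeR adjusted p = 0.994). Its sign was not fixed, since it was 0.03 without control mouse 3 and slightly above 0 without *Slc39a8*-NSKO mouse 2 or 3.

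*Dnajb1* (chr8:83608193-83612653, plus strand), which encodes the J-domain protein HSP40 that stimulates the ATPase of HSP70, had 49.6, 51.8, and 50.3 CPM in control mice and 47.1, 41.1, and 40.8 CPM in *Slc39a8*-NSKO mice. The control mice were close together and all above the *Slc39a8*-NSKO mice, of which mouse 1 was the nearest to control. The means were 50.6 ± 1.14 and 43.0 ± 3.55 CPM (SD, n = 3), or 85.1% of control, with a log2 fold change of -0.23 ± 0.0706 (SE) and a 95% interval from -0.38 to -0.08. This was the lowest unadjusted p of the 9 genes, 0.00570, but rank 145 of 16330, and the adjusted p was 0.640 in edgeR. The exact two-sided permutation test gave p = 0.1, the smallest possible here. Leaving out each mouse in turn gave -0.30 to -0.19, all in the same direction, and none of the alternatives brought the adjusted p below 0.247. *Dnajb1* counts were whole numbers in all 6 mice, with 745 to 1027 counts.

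The HSP90 genes had small differences between genotypes beside their spread. *Hsp90ab1* (chr17:45567775-45573271, minus strand) had 1136, 1114, and 1149 CPM in control mice and 1168, 1089, and 1098 CPM in *Slc39a8*-NSKO mice. Its SD of log2 values within genotypes was the lowest of the 9 genes, at the 5.92nd percentile of all those tested, and the log2 fold change of -0.02 ± 0.0497 (SE) had a 95% interval from 0.916 to 1.06 times control (edgeR adjusted p = 0.994), and it was -0.050 to -7.4e-05 when each mouse was left out. *Hsp90aa1* (chr12:110690605-110702728, minus strand) had 973, 949, and 905 CPM in control mice and 993, 955, and 878 CPM in *Slc39a8*-NSKO mice. Both the highest and the lowest mouse were *Slc39a8*-NSKO, with means of 943 ± 34.5 and 942 ± 58.8 CPM (SD, n = 3). The log2 fold change was -0.0011 ± 0.0567 (SE), with a 95% interval from 0.918 to 1.09 times control (edgeR adjusted p = 0.999), and its sign changed when control mouse 1, control mouse 2, or *Slc39a8*-NSKO mouse 3 was left out (0.024, 0.0040, and 0.048). Counts given to the *Hsp90aa1* pseudogene *Gm12346*, which holds 23.6% of its words, came to 0.363% of those of *Hsp90aa1* when summed over the 6 mice.

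*Hspb1* (chr5:135887919-135889563, plus strand), the small heat shock protein HSP25 of the mouse, had 12.9, 14.95, and 14.01 CPM in control mice and 10.9, 13.1, and 10.5 CPM in *Slc39a8*-NSKO mice. The groups overlapped through *Slc39a8*-NSKO mouse 2, which lay just above control mouse 1. The means were 13.96 ± 1.01 and 11.5 ± 1.41 CPM (SD, n = 3), or 82.3% of control. The log2 fold change of -0.28 ± 0.116 (SE) had a 95% interval from -0.53 to -0.03 and an unadjusted p of 0.0323 (edgeR adjusted p = 0.896; exact two-sided permutation p = 0.2). It ranged from -0.38 to -0.21 when each mouse was left out. At 197 to 268 counts per mouse *Hspb1* was one of the thinly counted genes of the set, and a 39.1% share of its words occurs in the pseudogene *Hsp25-ps1*, which had 0 to 2.42 counts.

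**Figure D4:**
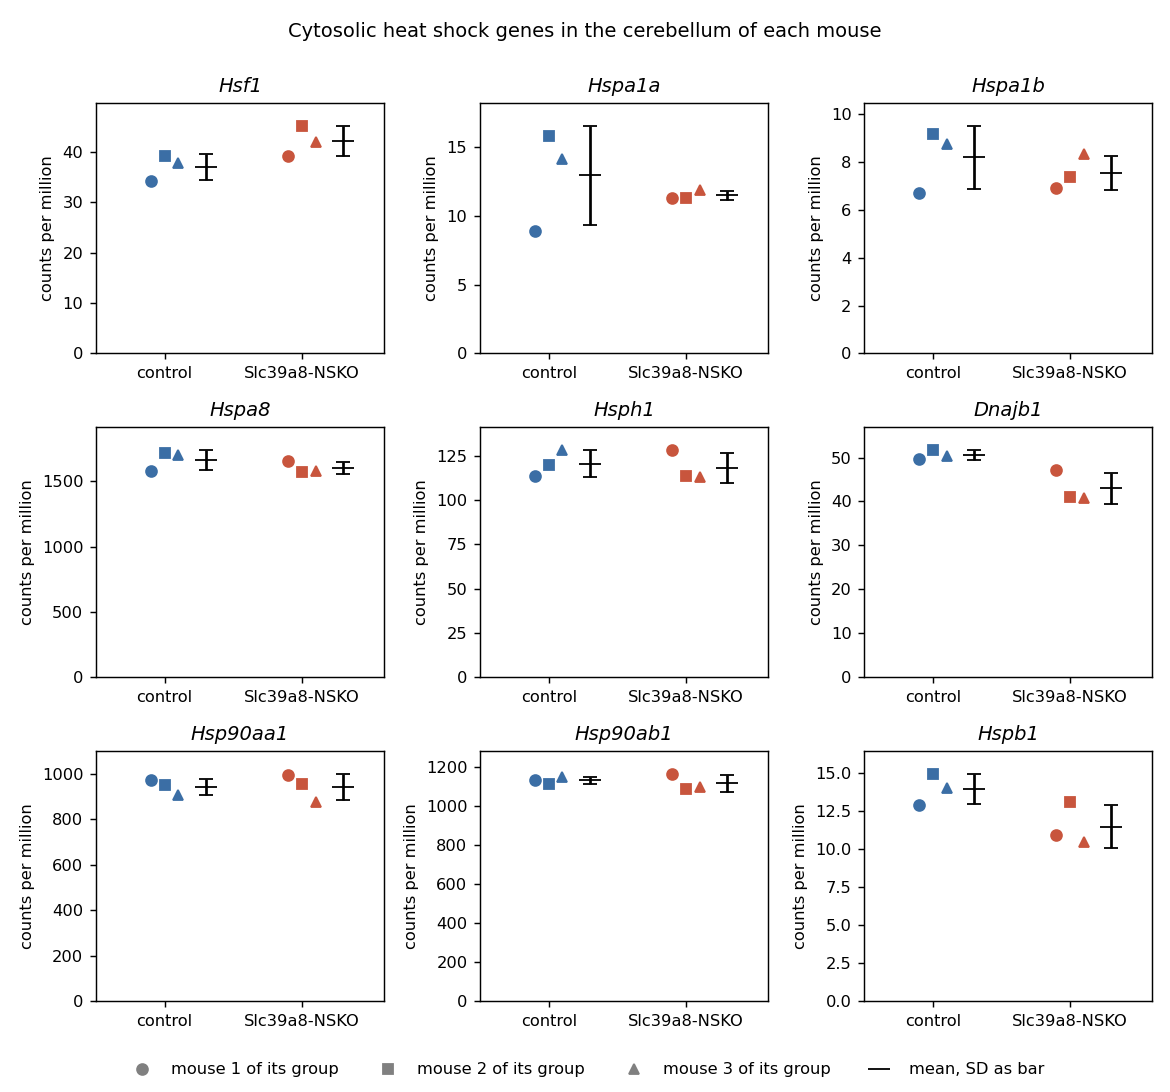
CPM of each of the 9 genes in each mouse, with axes from 0, control mice in blue and *Slc39a8*-NSKO mice in red, marker shapes for the mouse number, and black bars for the mean with its SD (n = 3). The genotypes are apart only for *Hsf1* and *Dnajb1*, and *Hspa1a* has its widest spread among the control mice, from 8.93 to 15.9.

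The 9 genes did not move as 1 block from mouse to mouse. Over the 6 mice, the 36 pairs of genes had a median Pearson's r of 0.239 in log2 CPM, compared with -0.000786 for all pairs of tested genes, of which the 95th percentile was 0.748. The pairs share libraries and depth, so these values are descriptions. The highest was *Hspa1a* with *Hspa1b* (0.914), genes that also share reads, followed by *Hspa1a* with *Hspa8* (0.810) and *Hsph1* with *Hsp90ab1* (0.798). The lowest was *Dnajb1* with *Hsf1* (-0.773), and 11 of the 36 were below 0. These values include the difference between genotypes. Centred within each genotype, *Dnajb1* with *Hsf1* had -0.391, and the median of the pairs was 0.270. *Hspb1* with *Hsf1* went from -0.223 to 0.838, and *Dnajb1* with *Hspb1* from 0.634 to -0.105. The lowest centred pair was *Hspa1b* with *Hsp90aa1* (-0.717), and *Hspa1a* with *Hspa1b* stayed the highest (0.909). Of all other tested genes, those most like the *Hspa1a* and *Hspa1b* sum over the 6 mice were *R3hdm1* (r = 0.994), *Zfp933* (0.992), *Mirg* (0.992), *Fam117a* (0.992), and *Gm43502* (0.991). Those most like the mean of the 9 genes were *Nop2* (r = 0.995), *Mrpl42* (0.994), *Gm42600* (0.987), *Vamp2* (0.979), and *Ppp1cc* (0.979). Both lists were picked as the highest r among all other tested genes over only 6 mice, so they do not show shared regulation. The sum itself had r = -0.964 with total counts.

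The other genes of chaperone biology were close to the background of all genes. Of 93 listed genes in 10 roles, 87 were tested, and none passed the threshold. An unadjusted p under 0.05 was found for 6 (6.90%, against 5.39% of all genes), and the groups did not overlap for 6, with 5 lower (5.75%, against 5.26%) and 1 higher (1.15%, against 5.07%). Their log2 fold changes were below 0 for 47 and above 0 for 40, with a median of -0.01. At most 3 genes of any role had an unadjusted p under 0.05. That role was the HSP90 cochaperones, with 3 of 15.

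*Dnajb4*, a J-domain gene of the same class as *Dnajb1*, had the lowest p of the wider list. It had 77.9 ± 1.1 CPM in control and 65.1 ± 5.10 CPM in *Slc39a8*-NSKO mice (SD, n = 3) without overlap, a log2 fold change of -0.26 ± 0.0647 (SE) with an edgeR adjusted p of 0.346. The adjusted p was 0.0372 when no filter on low counts was applied. The other genes of the list with lower, not overlapping levels were *Unc45a*, a myosin and HSP90 cochaperone (-0.24, edgeR adjusted p = 0.407), *Dedd2*, which HSF1 is known to raise on heat (-0.26, edgeR adjusted p = 0.534), *Bag2*, a nucleotide exchange factor of HSP70 (-0.29, edgeR adjusted p = 0.872), and *Aarsd1*, an HSP90 cochaperone (-0.12, edgeR adjusted p = 0.983). *Trap1*, the mitochondrial HSP90, was higher without overlap (0.04, edgeR adjusted p = 0.994).

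Some further genes were picked after their values were seen. *Bag3*, the cochaperone that links HSP70 to small heat shock proteins and is itself a target of HSF1, had 19.6 ± 3.16 and 18.0 ± 0.982 CPM (log2 fold change -0.11, edgeR adjusted p = 0.994). *Fkbp5*, an HSP90 cochaperone that glucocorticoids raise, had the largest positive value of the list, 0.51 ± 0.191 (SE) with a 95% interval from 0.10 to 0.92, overlapping groups, and an edgeR adjusted p of 0.860, which became 0.0026 with no filter on low counts. *Hspb7*, a small heat shock gene of muscle, was too low to be tested and was counted 2, 1, and 2 times in control mice against 7, 13, and 5 times in *Slc39a8*-NSKO mice. Heat shock elements of 3 units occurred in the windows of 4 of the 78 genes of the wider list with a window, *Dnajb6*, *Chordc1*, *Hspd1*, and *Hspe1*. Their log2 fold changes were -0.01, -0.07, -0.0064, and -0.02, in order.

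**Figure D5:**
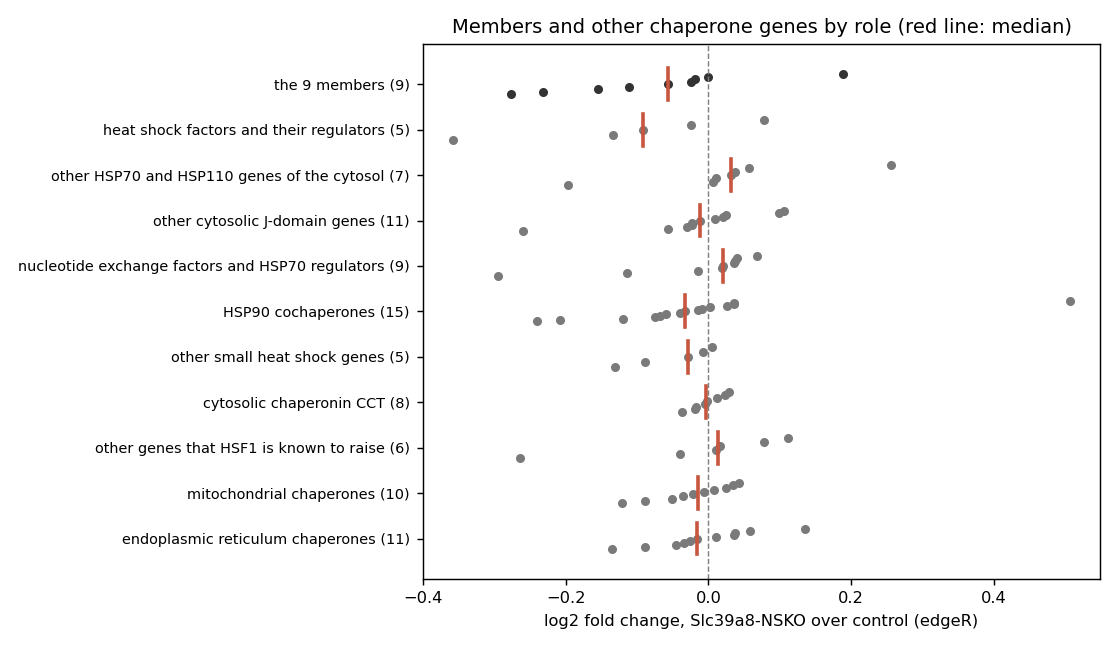
Log2 fold change of *Slc39a8*-NSKO over control (edgeR) for the 9 genes and for the tested genes of each of 10 other chaperone roles, with 1 point per gene, a red line at the median, and the number of genes in parentheses. The medians of the 10 roles lie between -0.09 and 0.03, and the point furthest to the right is *Fkbp5* at 0.51.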

How the data were processed

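Cerebellar RNA of 3 control and 3 *Slc39a8*-NSKO mice was sequenced. Per the submitters' processing notes and the study's methods, the authors aligned paired-end reads with STAR to mm10 (GRCm38) and deposited estimated counts per gene from RSEM, with no normalization. Versions are not given in the sources used here. The 92 spike-in sequences (0 to 5 counts a mouse) were left out, and 53620 genes were named from a GENCODE annotation of GRCm38.

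Estimated counts were rounded and tested in R 4.3.3 with edgeR 4.0.16 (filterByExpr, TMM, glmQLFit, glmQLFTest, no covariate), with Benjamini-Hochberg adjustment over 16330 genes and a threshold of 0.05. SE is the log2 fold change over the root of its F statistic, and intervals are at 95%. Levels per kb used the union of exons. Alternatives were DESeq2 1.42.0, limma-voom (limma 3.58.1), RLE, library size only, the low-count filter dropped or replaced by 10 counts in each mouse, unrounded counts, a replicate block, each mouse left out, a threshold of 0.1, and, added after seeing the data, total counts as a covariate. The scripts were tested on simulated data.

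The methods state 3 mice per genotype, while a legend speaks of technical triplicates. If the samples were not separate mice, the p-values measure technical spread. The members, lists, and motifs were chosen with earlier results of these data known. The genes named are the members, *Slc39a8*, the 5 genes most like the *Hspa1a* and *Hspa1b* sum and the 5 most like the members' mean, and, in each listed role, the genes past the threshold and those with the largest rise and fall among genes whose groups did not overlap. The genes that share reads with members, *Aarsd1*, *Bag3*, *Fkbp5*, *Hspb7*, and the 4 genes with elements of 3 units were chosen after their values were seen.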

Additional observations from a re-analysis of the deposited data

How the results depend on the processing

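None of the 9 genes passed the threshold under any alternative, and their median log2 fold change, -0.06 in the main test, was -0.09 to -0.03 with 1 mouse left out and -0.0093 with total counts as a covariate. Over all genes, 16 passed, compared with 37 in DESeq2, 178 with no filter on low counts, 41 with the replicate block, 27 at a threshold of 0.1, and 9 (without *Slc39a8*-NSKO mouse 2) to 38 (without control mouse 1) when 1 mouse was left out. With no filter, 2 genes of the wider list passed, *Dnajb4* (-0.25) and *Fkbp5*. Whether replicate numbers pair the mice was not settled. With the mean of each genotype taken out of each gene, same-numbered mice had correlations of 0.142, 0.116, and 0.0104. The other pairs had -0.177 to 0.0665. Control mice 1 and 2 were most like the *Slc39a8*-NSKO mouse of their own number. Control mouse 3 was most like *Slc39a8*-NSKO mouse 1 (0.0355). With total counts as a covariate the log2 fold change was 0.15 for the *Hspa1a* and *Hspa1b* sum, 0.20 for *Hspa1a*, 0.088 for *Hspa1b*, and 0.012 for *Hsph1*, and the cause was not tested. Leaving out 1 mouse gave -0.38 to 0.015 for *Hspa1a*, -0.084 to 0.025 for *Hsph1*, and -0.039 to 0.048 for *Hsp90aa1*, which was also above 0 in DESeq2 (0.0015), with library size only (0.0038), and with no filter (0.0046). Divided by the longest transcript, levels were 518 for *Hspa8*, 447 for *Hsp90ab1*, 287 for *Hsp90aa1*, 25.1 for *Hsph1*, and 12.6 for *Hsf1*. With 2 units in place of 3, heat shock elements occurred in 4 genes. *Hspa1a*, *Hspa1b*, and *Hspb1* were thinly counted, with counts all at or below 268 per mouse.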
